A study of Mus musculus with 4 samples.

Results

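DNA replication and nucleotide supply genes were examined in tdTomato-positive Sst interneurons of control and *Dnmt1* KO mouse embryos, sorted from E14.5 basal telencephalon. The 45 genes encode the origin recognition complex (ORC), licensing factors, the MCM2-7 helicase and its activators, primase, replicative polymerases, the sliding clamp and its loader, replication protein A (RPA), lagging strand enzymes and enzymes that make deoxynucleotides. They were listed by gene name, with earlier results of these data known, and all 45 had a row in the table of 56883 genes. Control embryos carried *Sst-Cre/tdTomato*, and *Dnmt1* KO embryos carried *Sst-Cre/tdTomato/Dnmt1 loxP2*, so that Cre and the reporter were shared by both genotypes. *Cre* was driven by *Sst*, a gene of postmitotic somatostatin cells, so the deletion was directed to cells that use this driver. Both genotypes had 2 libraries, each from cells of several pooled embryos, with 50000 cells pooled per genotype for RNA isolation. The p-values therefore measure only the spread between these pools.

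DNA replication starts at origins that ORC marks. CDC6 and CDT1 then load the MCM2-7 helicase, and geminin blocks CDT1 from loading it again within the same cycle. CDC45 and the GINS complex turn the loaded helicase on, primase lays down primers, and the polymerases, held by the PCNA clamp, extend them on deoxynucleotides that ribonucleotide reductase supplies. Most of these genes are known E2F targets that dividing cells transcribe ahead of S phase and that neurons shut down after they leave the cell cycle, whereas several ORC subunits are also transcribed in cells that do not divide.

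Recovered reads per library ranged from 6970247 to 8376711. *Dnmt1*, counted over the whole gene, had normalized counts of 2238 and 2341 in control and 2164 and 2210 in *Dnmt1* KO libraries (limma adjusted p = 0.461), a count that does not check the floxed part. The defining gene of the sorted cells, *Sst*, was present in all 4 libraries at 5580 to 8303, but so were genes of dividing cells, such as *Mki67* at 1755 to 2553.

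Of the 45 genes, 44 reached the required mean of 10 normalized counts, and 17 of them were lower and 0 higher in *Dnmt1* KO cells at a limma adjusted p below 0.05. The share of tested members called lower was 38.6%, against 8.99% of all 14323 genes tested, and 8.30% of all genes were called higher. The called members were 19.3% to 53.2% lower, with log2 fold changes from −0.32 (*Mcm7*) to −1.07 (*Gmnn*). All 6 MCM2-7 subunits were called, none of the ORC or primase subunits was, and the other complexes each held 1 or 2 called genes. The median log2 fold change over the 44 tested members was −0.34, and over all genes tested it was −0.003. In bulk samples such as these, fewer cells of a type and less RNA per cell cannot be told apart.

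The normalized counts of all 45 members summed to 10887 and 11022 in control and to 8515 and 8672 in *Dnmt1* KO libraries. Relative to the control mean, the *Dnmt1* KO sums were 77.7% and 79.2%. In recovered reads, the members made up 0.145% and 0.148% of the control libraries and 0.111% and 0.114% of the *Dnmt1* KO libraries, so both scales gave the same order without overlap. Both *Dnmt1* KO values lay below both control values for 32 of the 44 tested members (72.7%), against 29.0% of all genes tested. That count holds the 17 called genes and 15 that were not called. Only *Pola1* among the tested members had both *Dnmt1* KO values above both control values.

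**Figure D1:**
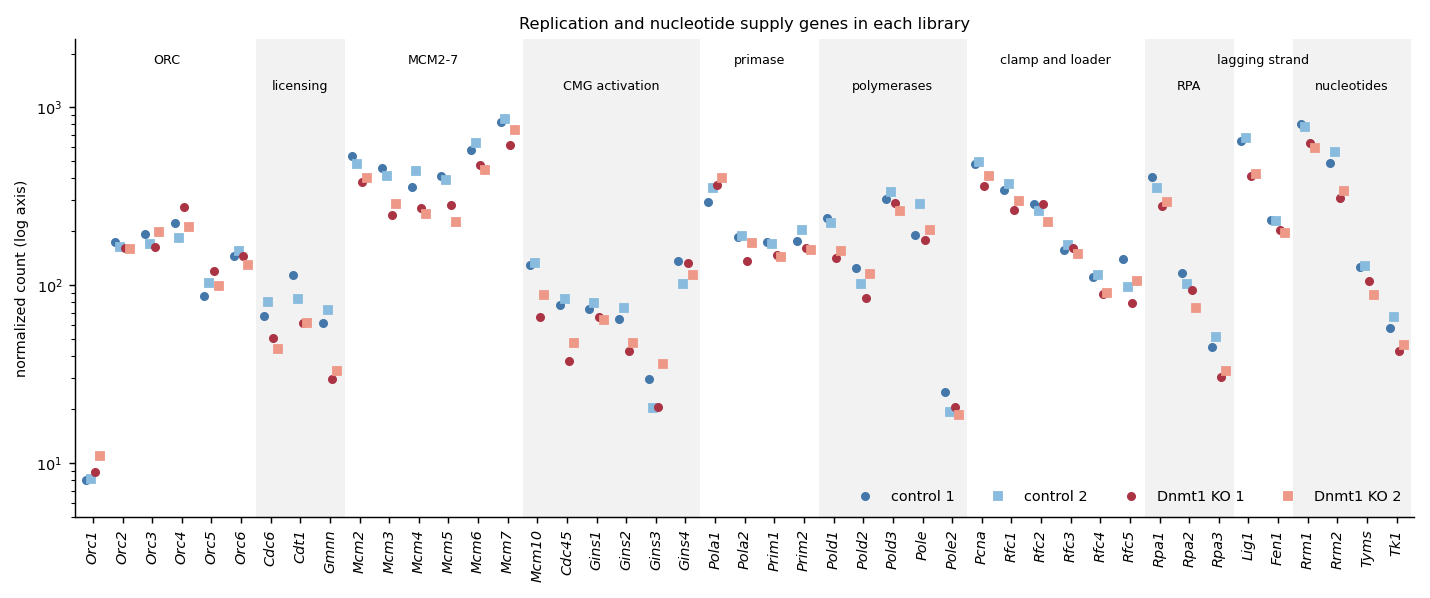
Normalized count on a log axis for each of the 45 genes in each of the 4 libraries (circles, library 1; squares, library 2; blue, control; red, *Dnmt1* KO), with shading by complex. The MCM2-7 subunits show the blue points above the red ones in each gene, whereas the colours mix among ORC subunits.

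The MCM2-7 ring is the motor that unwinds DNA at the fork, and its 6 subunits act in equal number. All 6 fell in *Dnmt1* KO cells, and the median of their log2 fold changes was −0.49. *Mcm3* (chr1:20870791-20890536, minus strand, GRCm39) had normalized counts of 457 and 412 in control and 247 and 285 in *Dnmt1* KO libraries. *Mcm5* (chr8:75836140-75856231, plus strand) was counted at 412.5 and 387 in control and at 281 and 227 in *Dnmt1* KO libraries. For *Mcm4* (chr16:15440211-15455264, minus strand) the values were 354 and 436 in control and 271 and 252 in *Dnmt1* KO libraries. In these 3 genes, each of the *Dnmt1* KO libraries lay well below the lower control library, and their fold changes were the largest of the ring. Their log2 fold changes were −0.71 ± 0.11 for *Mcm3* (SE, limma adjusted p = 0.000361), −0.66 ± 0.12 for *Mcm5* (limma adjusted p = 0.00119) and −0.58 ± 0.12 for *Mcm4* (limma adjusted p = 0.00288).

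The other three subunits, *Mcm2*, *Mcm6* and *Mcm7*, fell less. *Mcm2* (chr6:88860452-88875762, minus strand) had 534 and 481 normalized counts in control and 379 and 401 in *Dnmt1* KO libraries. *Mcm6* (chr1:128259311-128287516, minus strand) had 574.5 and 625 in control and 473.5 and 441 in *Dnmt1* KO libraries. *Mcm7* (chr5:138162844-138170684, minus strand), the most abundant subunit per kilobase, had 822 and 855.5 in control and 612.5 and 741 in *Dnmt1* KO libraries. The genotypes did not overlap in any of the 3, although the *Dnmt1* KO libraries of *Mcm7* were far apart. Log2 fold changes were −0.38 ± 0.09 for *Mcm2* (limma adjusted p = 0.0118), −0.39 ± 0.09 for *Mcm6* (limma adjusted p = 0.00661) and −0.32 ± 0.09 for *Mcm7* (limma adjusted p = 0.0236). Without *Dnmt1* KO library 1 the *Mcm7* value was −0.18 and was not called (limma adjusted p = 0.264). *Mcm7* also overlaps *Cops6* and *Ap4m1* on the other strand, and as the sources used here do not state the strand setting of the counting, its level is uncertain to that extent.

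Promoter sequences are shown for 6 called members of the helicase and licensing groups that hold letters typical of E2F sites, and for *Pola1*, which holds them but was not called. Each window runs 5′ to 3′ along the gene from 250 bases before to 50 bases after the start of the Ensembl canonical transcript in GENCODE, on GRCm39. Capitals mark TTTCCCGC, TTTCGCGC, TTTGCCGC or TTTGGCGC on either strand, and matches may overlap, as they do in *Mcm5* and *Mcm6*.
*Mcm3* promoter, chr1:20890487-20890786, minus strand: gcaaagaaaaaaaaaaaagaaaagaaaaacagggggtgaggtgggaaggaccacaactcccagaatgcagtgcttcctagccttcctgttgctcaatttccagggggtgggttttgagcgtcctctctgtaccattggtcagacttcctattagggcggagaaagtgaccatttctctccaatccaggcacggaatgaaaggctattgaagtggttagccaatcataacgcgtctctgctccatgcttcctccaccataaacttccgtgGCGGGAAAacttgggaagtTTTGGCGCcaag
*Mcm4* promoter, chr16:15455215-15455514, minus strand: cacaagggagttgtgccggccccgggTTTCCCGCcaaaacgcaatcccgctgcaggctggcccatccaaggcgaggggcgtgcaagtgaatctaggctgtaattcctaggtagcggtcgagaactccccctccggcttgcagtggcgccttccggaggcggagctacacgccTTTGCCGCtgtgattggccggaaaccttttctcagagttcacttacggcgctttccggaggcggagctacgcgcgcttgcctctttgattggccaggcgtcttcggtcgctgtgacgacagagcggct
*Mcm5* promoter, chr8:75835890-75836189, plus strand: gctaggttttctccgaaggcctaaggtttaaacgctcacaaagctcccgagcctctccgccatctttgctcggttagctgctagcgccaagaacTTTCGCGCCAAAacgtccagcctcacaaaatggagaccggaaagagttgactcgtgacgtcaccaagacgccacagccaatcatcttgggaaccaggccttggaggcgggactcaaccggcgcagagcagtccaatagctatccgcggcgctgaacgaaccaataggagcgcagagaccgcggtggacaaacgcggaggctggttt
*Mcm6* promoter, chr1:128287403-128287702, minus strand: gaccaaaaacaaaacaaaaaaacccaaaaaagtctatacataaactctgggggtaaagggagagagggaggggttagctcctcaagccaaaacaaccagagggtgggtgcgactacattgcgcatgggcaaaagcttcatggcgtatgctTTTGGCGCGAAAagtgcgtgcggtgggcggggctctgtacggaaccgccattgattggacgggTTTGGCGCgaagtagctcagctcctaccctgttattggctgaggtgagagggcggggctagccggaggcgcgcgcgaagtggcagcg
*Cdt1* promoter, chr8:123294498-123294797, plus strand: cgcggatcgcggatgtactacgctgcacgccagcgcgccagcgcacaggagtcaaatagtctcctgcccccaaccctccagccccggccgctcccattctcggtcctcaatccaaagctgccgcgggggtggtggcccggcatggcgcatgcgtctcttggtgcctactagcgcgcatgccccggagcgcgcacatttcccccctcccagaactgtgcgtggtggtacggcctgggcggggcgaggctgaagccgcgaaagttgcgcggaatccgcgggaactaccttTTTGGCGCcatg
*Gmnn* promoter, chr13:24945857-24946156, minus strand: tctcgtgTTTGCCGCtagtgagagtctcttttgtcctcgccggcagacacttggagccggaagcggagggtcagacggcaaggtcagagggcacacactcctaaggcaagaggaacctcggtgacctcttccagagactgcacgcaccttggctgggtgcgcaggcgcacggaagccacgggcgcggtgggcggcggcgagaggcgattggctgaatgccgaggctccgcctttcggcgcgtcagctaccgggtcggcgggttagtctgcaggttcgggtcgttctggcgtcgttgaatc
*Pola1* promoter, chrX:92675764-92676063, minus strand: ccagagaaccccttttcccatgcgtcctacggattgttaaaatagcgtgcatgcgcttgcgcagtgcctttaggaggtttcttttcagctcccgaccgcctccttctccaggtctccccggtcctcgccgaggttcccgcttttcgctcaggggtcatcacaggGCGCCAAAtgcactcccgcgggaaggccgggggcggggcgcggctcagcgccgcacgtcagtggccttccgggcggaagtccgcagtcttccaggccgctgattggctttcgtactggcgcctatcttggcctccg

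These letters occurred in the windows of 14 of the 45 members (31.1%), against 2.82% of 21770 protein-coding promoters and 4.09% of the 12278 promoters of tested genes. The *Mcm3* window held 2 matches, both after the start at positions 19 and 38, whereas the 3 matches of *Mcm6* lay before it, at −100, −96 and −37. The 13 tested members with the letters included 6 called lower, and the 31 without them included 11. Their median log2 fold changes were −0.39 with and −0.34 without the letters, so the members with and without a match had similar values. Among the genes without a match were *Mcm2*, *Mcm7*, *Lig1*, *Rrm1*, *Rrm2* and *Pcna*, all called lower, and a missing match says only that these letters are not in this window. CCAAT, on either strand, was in 26 of the 45 member windows (57.8%) and in 39.9% of all protein-coding promoters. The CHR letters TTTGAA or TTCGAA, typical of genes transcribed late in the cycle, were in 4 member windows (8.89%) and in 18.8% of all.

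ORC, which binds origins and recruits the loading factors, had 0 of 5 tested subunits called. *Orc2* had 175 and 164 normalized counts in control and 162 and 159.5 in *Dnmt1* KO libraries. *Orc3* had 192 and 169.5 in control and 165 and 199.9 in *Dnmt1* KO libraries. *Orc4* had 225 and 185 in control and 274 and 211 in *Dnmt1* KO libraries. The genotypes overlapped for *Orc3*, *Orc4* and *Orc5*, while *Orc2* and *Orc6* were slightly lower in both *Dnmt1* KO libraries. Log2 fold changes ran from −0.14 (*Orc6*, 95% interval −0.46 to 0.18) to 0.24 (*Orc4*, −0.08 to 0.55), with limma adjusted p from 0.304 to 0.983, so that a fall of the size seen in *Mcm7* lies inside the interval of *Orc2* (−0.37 to 0.21) but not inside that of *Orc3* (−0.30 to 0.31). The direction of *Orc4* turned to −0.22 once the trend over length and GC content had been taken out of each library, and *Orc4* overlaps *Acvr2a* and *Mbd5* on the other strand. *Orc1*, the subunit whose level oscillates with the cycle, was below the filter, with 8 to 10 reads per library and normalized counts of 8.05 and 8.17 in control and 8.88 and 10.9 in *Dnmt1* KO libraries, and it was not tested.

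Set against each other within a library, the summed MCM2-7 counts were 3.79 and 4.07 times the summed ORC counts in control, and 2.59 and 2.90 times in *Dnmt1* KO libraries. The helicase to ORC ratio was thus lower in both *Dnmt1* KO libraries, with no overlap, and it does not depend on the scaling between libraries. Every ORC gene overlaps a counted gene on the other strand, such as *Akirin2* at *Orc3* (mean 879 normalized counts) and *Vps35* at *Orc6* (646). As the strand setting of the counting is not stated, the ORC sums and this ratio are uncertain to that extent. With the length and GC trend taken out, the median log2 fold change of ORC went from 0.007 to −0.097, and that of MCM2-7 from −0.49 to −0.50. The ORC sums were 108% and 99.9% of the control mean in *Dnmt1* KO libraries, against 71.3% and 73.9% for MCM2-7.

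The licensing factors decide when the helicase may be loaded, and 2 of the 3 fell. *Gmnn* (chr13:24935812-24946084, minus strand), which encodes geminin, the inhibitor of CDT1, had 60.9 and 72.5 normalized counts in control and 29.6 and 32.8 in *Dnmt1* KO libraries. *Cdt1* (chr8:123294703-123300293, plus strand), the loader that geminin blocks, had 114 and 83.7 in control and 61.2 in each *Dnmt1* KO library. *Cdc6*, the ATPase that loads the helicase with CDT1, had 67.1 and 80.7 in control and 50.3 and 43.7 in *Dnmt1* KO libraries. All 3 were lower in both *Dnmt1* KO libraries than in either control library. *Gmnn* fell by 1.07 ± 0.26 on the log2 scale (limma adjusted p = 0.00991), the largest fall of the 17 called members, and *Cdt1* fell by 0.66 ± 0.21 (limma adjusted p = 0.0421). The estimate for *Cdc6* was of like size, −0.64 ± 0.23, but was not called (limma adjusted p = 0.0732). The *Cdt1* to *Gmnn* count ratio was 1.87 and 1.16 in control and 2.07 and 1.87 in *Dnmt1* KO libraries, so that the genotypes touched. The control values of *Cdt1* lay far apart, and it was not called without control library 1 (−0.45, limma adjusted p = 0.324) or without either *Dnmt1* KO library (limma adjusted p = 0.0584 and 0.0595).

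Helicase activation requires MCM10, CDC45 and the 4 GINS subunits. *Cdc45* (chr16:18599195-18631551, minus strand), part of the active helicase, had 77.0 and 83.7 normalized counts in control and 37.5 and 47.0 in *Dnmt1* KO libraries. *Mcm10* (chr2:4994516-5017629, minus strand), which helps to start unwinding, had 129 and 134 in control and 66.1 and 87.4 in *Dnmt1* KO libraries. Both fell clear of the control range, *Cdc45* by 0.92 ± 0.23 (limma adjusted p = 0.0132) and *Mcm10* by 0.78 ± 0.19 on the log2 scale (limma adjusted p = 0.00948). *Cdc45* overlaps *Ufd1* on the other strand, which had 326 to 415.5 counts in the 4 libraries with no separation of the genotypes.

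The GINS subunits, which act together, gave 4 different estimates and no call. *Gins2* had 64.4 and 74.5 normalized counts in control and 42.4 and 47.0 in *Dnmt1* KO libraries (log2 fold change −0.62, limma adjusted p = 0.0834). *Gins1* had 73.4 and 79.6 in control and 66.1 and 63.4 in *Dnmt1* KO libraries (−0.24, limma adjusted p = 0.490). Both were lower in each *Dnmt1* KO library, whereas the genotypes overlapped for *Gins3* and *Gins4*. *Gins3*, with 20 to 33 reads per library, had a 95% interval of −0.65 to 0.95, which holds both the fall of *Gins2* and no change. *Gins4* had 137 and 101 in control and 133 and 114 in *Dnmt1* KO libraries (0.06, 95% interval −0.32 to 0.45).

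Primase and polymerase alpha make the RNA-DNA primers, and 0 of their 4 subunits was called. *Pola1*, the catalytic subunit of polymerase alpha, had 293 and 350.2 normalized counts in control and 366 and 401 in *Dnmt1* KO libraries. *Pola2*, its accessory subunit, had 185 and 189.9 in control and 137 and 173 in *Dnmt1* KO libraries. The members of this complex thus lay on either side of the control values, *Pola1* above in both *Dnmt1* KO libraries and *Pola2*, *Prim1* and *Prim2* below. The log2 fold change of *Pola1* was 0.26 (95% interval 0.02 to 0.50, unadjusted p = 0.0350, limma adjusted p = 0.131), the most positive of all tested members in this fit. With the length and GC trend taken out it was 0.13, below *Gins4* (0.19) and *Orc5* (0.15), and with 1 library left out it ran from 0.13 without control library 1 to 0.39 without control library 2. The primase subunits *Prim1* and *Prim2* had −0.24 and −0.25, with limma adjusted p of 0.273 and 0.251.

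Among the replicative polymerases, 1 of 5 genes was called. *Pold1* (chr7:44182168-44198349, minus strand), the catalytic subunit of polymerase delta, which copies the lagging strand, had 238 and 223 normalized counts in control and 142 and 155 in *Dnmt1* KO libraries. It fell by 0.63 ± 0.13 on the log2 scale (limma adjusted p = 0.00404). The accessory subunits gave smaller estimates, −0.18 for *Pold2* and −0.22 for *Pold3* (limma adjusted p = 0.598 and 0.208). The *Pold1* to *Pold2* count ratio was 1.91 and 2.20 in control and 1.67 and 1.34 in *Dnmt1* KO libraries, without overlap. It restates the fold changes of *Pold1* and *Pold2*, so it is not separate support. *Pole*, the leading strand polymerase, had 192 and 286 in control and 178.5 and 204 in *Dnmt1* KO libraries, so its genotypes overlapped. The log2 fold change of *Pole* was −0.29 with all libraries (limma adjusted p = 0.256). It was −0.58 without control library 1 (limma adjusted p = 0.0301) and −0.0038 without control library 2 (limma adjusted p = 0.993), so either control library moved it. *Pole2*, the second subunit of that enzyme, was counted at 17 to 28 reads per library, and its 95% interval of −0.97 to 0.64 leaves its direction unsettled.

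The clamp gene *Pcna* (chr2:132091082-132095234, minus strand), the most abundant member per kilobase, had 479.6 and 493 normalized counts in control and 362 and 409 in *Dnmt1* KO libraries. *Rfc1* (chr5:65418916-65493155, minus strand), the large subunit of the clamp loader, had 344 and 371 in control and 265 and 296 in *Dnmt1* KO libraries. The clamp and the large loader subunit fell by like amounts, with log2 fold changes of −0.34 ± 0.10 for *Pcna* (limma adjusted p = 0.0240) and −0.35 ± 0.11 for *Rfc1* (limma adjusted p = 0.0379). Each kept its call in only 1 of the 4 fits that left out a library. *Rfc2* to *Rfc5*, the small loader subunits, were not called, and their estimates ran from −0.34 (*Rfc5*) to −0.06 (*Rfc3*). The *Rfc5* estimate was −0.08 without control library 1 and −0.60 without control library 2. *Rfc4* alone of them was lower in both *Dnmt1* KO libraries, with 111 and 114 in control and 88.8 and 90.7 in *Dnmt1* KO libraries (limma adjusted p = 0.226). Reads of *Pcna* can be shared with a near-identical copy, and the pseudogene *Pcna-ps2* had 16.1 and 26.5 in control and 3.95 and 12.0 in *Dnmt1* KO libraries, a drop of fewer counts than that of *Pcna*.

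RPA coats unwound DNA. *Rpa1* (chr11:75188992-75239455, minus strand), its large subunit, had 405 and 350.2 normalized counts in control and 278 and 294 in *Dnmt1* KO libraries, and it fell by 0.40 ± 0.11 on the log2 scale (limma adjusted p = 0.0200). *Rpa2* and *Rpa3*, the smaller subunits, were also lower in both *Dnmt1* KO libraries but were not called. *Rpa3* had 44.7 and 51.0 in control and 30.6 and 32.8 in *Dnmt1* KO libraries, a log2 fold change of −0.58 with a 95% interval of −1.17 to 0.01 (limma adjusted p = 0.175). *Rpa2* had an estimate of −0.37 (limma adjusted p = 0.205). The estimate for *Rpa3*, though not called, was thus below that of *Rpa1*, and its smaller count gave an SE of 0.28 in place of 0.11. *Rpa1* overlaps *Smyd4* on the other strand, which had a mean of 93.9 normalized counts.

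*Lig1* (chr7:13011239-13045350, plus strand), the ligase that joins Okazaki fragments, showed the smallest p of all members. Its normalized counts were 649 and 669 in control and 409 and 418.5 in *Dnmt1* KO libraries. Replicates lay close together and the genotypes far apart, giving a log2 fold change of −0.67 ± 0.08 (limma adjusted p = 6.24e-05). *Fen1*, the nuclease that trims the fragments before ligation, had 232 and 229 in control and 203 and 196 in *Dnmt1* KO libraries (−0.21, limma adjusted p = 0.280). The *Lig1* to *Fen1* ratio was 2.80 and 2.92 in control and 2.02 and 2.14 in *Dnmt1* KO libraries. This ratio restates the fold changes of *Lig1* and *Fen1*, so it is not separate support. *Lig1* overlaps *Zswim9* on the other strand, which had 103 to 143 counts per library.

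Ribonucleotide reductase turns ribonucleotides into deoxynucleotides and consists of a large subunit, RRM1, and a small subunit that is RRM2 in dividing cells. *Rrm2* (chr12:24757811-24764145, plus strand) had 482 and 560.5 normalized counts in control and 307 and 339 in *Dnmt1* KO libraries. *Rrm1* (chr7:102090890-102119709, plus strand) had 806 and 776 in control and 630.3 and 589 in *Dnmt1* KO libraries. Both subunits fell without overlap, *Rrm2* by 0.69 ± 0.10 (limma adjusted p = 0.000278) and *Rrm1* by 0.38 ± 0.08 on the log2 scale (limma adjusted p = 0.00370). *Tyms*, which makes thymidylate, had 126 and 128 in control and 105.5 and 88.5 in *Dnmt1* KO libraries (−0.39, limma adjusted p = 0.139). *Tk1*, the thymidine kinase of dividing cells, had 57.3 and 66.4 in control and 42.4 and 45.9 in *Dnmt1* KO libraries (−0.47, limma adjusted p = 0.205). All 4 nucleotide supply members were therefore lower in both *Dnmt1* KO libraries, and the reductase subunits passed the test.

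The paralogues that also serve cells outside S phase gave a different order. *Rrm2b*, the small reductase subunit used outside S phase, had 63.5 and 84.7 normalized counts in control and 89.8 and 97.2 in *Dnmt1* KO libraries (limma adjusted p = 0.286), so it lay above the control values. The *Rrm2* to *Rrm2b* ratio was 7.59 and 6.61 in control and 3.42 and 3.48 in *Dnmt1* KO libraries. For the mitochondrial kinase *Tk2*, with 237 and 196 in control and 213 and 204 in *Dnmt1* KO libraries, the genotypes overlapped, and the *Tk1* to *Tk2* ratio was 0.242 and 0.339 in control and 0.199 and 0.225 in *Dnmt1* KO libraries. Both ratios were lower in each *Dnmt1* KO library, and the reductase pair was clearly apart. *Rrm2b* and *Tk2* were chosen for this comparison after their values were seen. None of the count ratios reported here was planned.

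**Figure D2:**
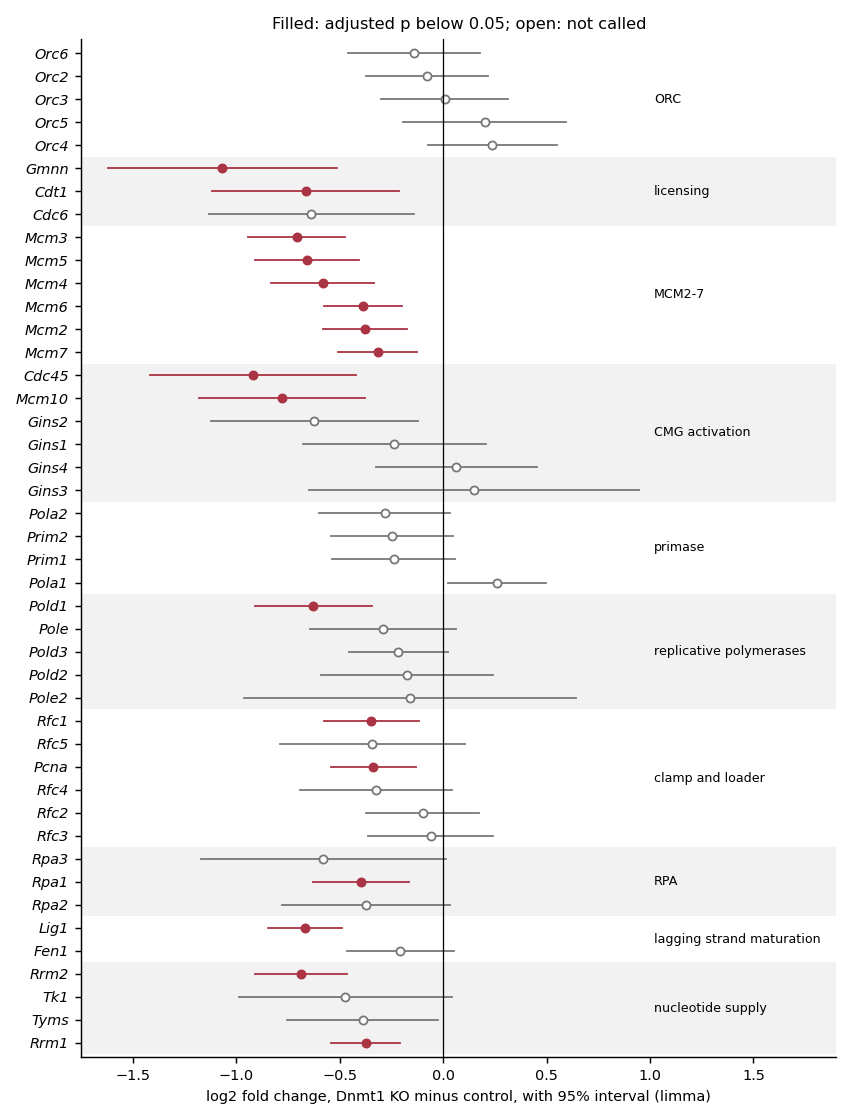
Log2 fold change (*Dnmt1* KO minus control) with its 95% limma interval for the 44 tested members, ordered within each complex, with filled red points for adjusted p below 0.05 and open grey points for genes not called. All 17 filled points lie left of 0, from −1.07 for *Gmnn* to −0.32 for *Mcm7*, and ORC spans 0.

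Divided by the length of the canonical transcript, the members differed widely in their control level. *Pcna* had the highest control mean at 320.4 normalized counts per kilobase, followed by *Mcm7* at 283, *Mcm6* at 202, *Rrm2* at 199 and *Lig1* at 195. The control libraries of *Mcm6*, *Rrm2* and *Lig1* overlapped on this scale, so these 3 cannot be ordered. At the other end were *Cdc6* at 16.0, *Pole2* at 13.0, *Gins3* at 9.91 and *Orc1* at 2.42. The 7 members with the highest control level per kilobase were all called lower, and low genes had wide intervals, with SEs on the log2 scale from 0.08 for *Rrm1* to 0.38 for *Pole2*. A gene that was not called is therefore not shown to be unchanged.

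The calls depended on the fit. edgeR and limma-voom on the recovered reads each called all 17, and DESeq2, the tool of the study, called 8 of the members lower, against 4.80% of all genes tested. The DESeq2 calls were *Mcm3*, *Mcm4*, *Mcm5*, *Mcm6*, *Pold1*, *Lig1*, *Rrm1* and *Rrm2*. limma without the variance trend called 0 genes and 0 members (smallest member limma adjusted p = 0.0657). Of the 17 genes, 6 (*Mcm3*, *Mcm5*, *Pold1*, *Lig1*, *Rrm1* and *Rrm2*) were called in each of the 4 limma fits that left out a library. Over the tested members, the median log2 fold change was −0.33 without control library 2 and −0.35 without control library 1. It was −0.28 without *Dnmt1* KO library 1 and −0.39 without *Dnmt1* KO library 2. Which library a call depended on differed by gene. *Mcm2* lost its call without control library 1 (limma adjusted p = 0.103), and *Mcm4*, *Mcm6* and *Gmnn* lost theirs without control library 2 (limma adjusted p = 0.0545, 0.0651 and 0.114). *Cdc45* was not called without either control library (limma adjusted p = 0.0626 and 0.111), and *Rpa1* not without control library 1 (limma adjusted p = 0.168) or *Dnmt1* KO library 1 (limma adjusted p = 0.0612). Without control library 1, control library 2 and *Dnmt1* KO library 1 in turn, the limma adjusted p was 0.0557, 0.0761 and 0.0539 for *Mcm10*, 0.0628, 0.124 and 0.264 for *Mcm7*, 0.0696, 0.112 and 0.175 for *Pcna*, and 0.0682, 0.197 and 0.202 for *Rfc1*, so these 4 genes kept their call only without *Dnmt1* KO library 2. *Cdt1* kept its call only without control library 2 (limma adjusted p = 0.0435). No called gene changed its direction in any of these fits.

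**Figure D3:**
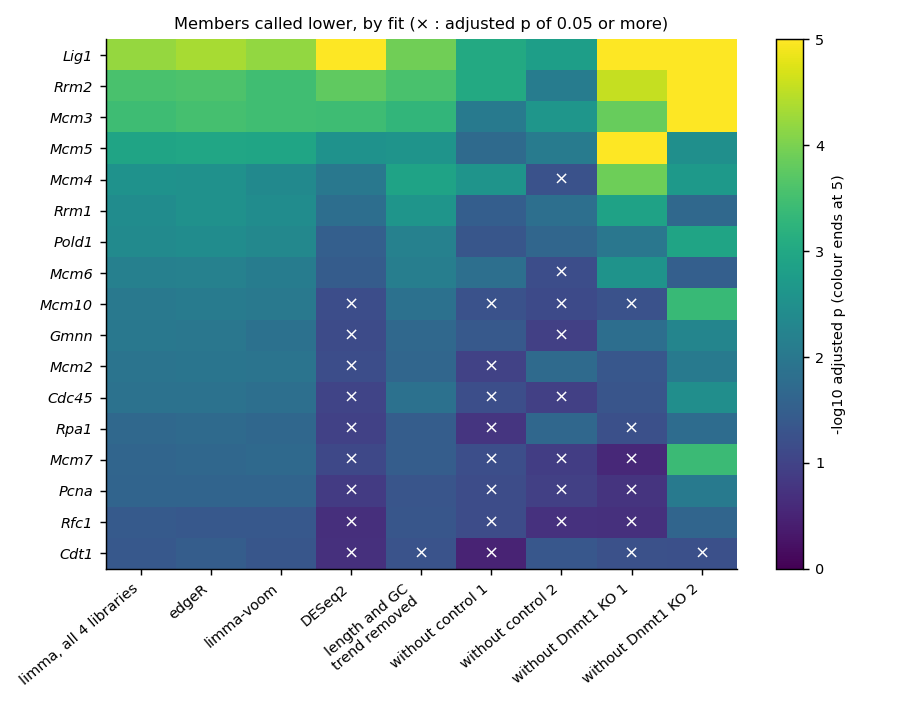
Adjusted p (colour, as −log10, ending at 5) of the 17 genes called lower, in rows, under 9 fits, in columns, with a cross where adjusted p was 0.05 or more. The limma fit without a variance trend, in which 0 members were called, is not shown. *Lig1*, *Rrm2*, *Mcm3*, *Mcm5*, *Rrm1* and *Pold1* have no cross, and *Cdt1* is the gene with a cross once the length and GC trend was taken out.

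Other genes of the replication machinery and of nucleotide synthesis were described from lists, without a test of the list. The counts in these and the following lists stand beside shares of 8.99% called lower and 8.30% called higher over all 14323 genes tested. The lists were chosen with earlier results of these data known. Of 30 other replication factors, 11 fell, 0 rose and 19 were not called, with a median log2 fold change of −0.35. Among the called genes of this list, *Clspn* and *Uhrf1* had the steepest falls. *Clspn*, the fork checkpoint adaptor claspin, had 258 and 286 normalized counts in control and 165 and 143 in *Dnmt1* KO libraries (−0.82). *Uhrf1*, which brings DNMT1 to newly copied DNA, had 572 and 531 in control and 339 and 336.5 in *Dnmt1* KO libraries (−0.70). Of 26 other nucleotide supply enzymes, 8 fell and 0 rose, with a median of −0.20. They included *Shmt1*, which makes one-carbon units for thymidylate, at −0.89 and *Nme2*, a nucleoside diphosphate kinase, at −0.53. Among 26 genes of G1/S control, 10 fell and 0 rose (median −0.29), led by cyclin D1 (*Ccnd1*, −1.06) and *E2f1* (−1.03), an activator of replication genes with 108 and 154 normalized counts in control and 59.2 and 66.6 in *Dnmt1* KO libraries. Without control library 2, the genes called lower came to 5, 3 and 5 in these lists, without control library 1 there were 3 nucleotide enzymes and 6 genes of G1/S control, and without either *Dnmt1* KO library 4 nucleotide enzymes were called.

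Markers of dividing cells and of other cell types moved with these genes. Of 20 mitosis markers, 18 fell and 0 rose, and their summed normalized counts were 9940 and 9738 in control and 6625 and 6855 in *Dnmt1* KO libraries (67.3% and 69.7% of the control mean), with *Aurkb* (−1.26) and *Aurka* (−0.88), both mitotic kinases, falling most. Of 12 radial glia markers, 9 fell and 1 rose, with sums of 11367 and 11555 in control and 6807 and 7068 in *Dnmt1* KO libraries (59.4% and 61.7%), where *Hopx* (−1.86) and *Nes* (−1.03) fell most and *Sox2* rose (0.40). Of 12 genes of the sorted cell type, 0 fell and 12 rose, with sums of 23248 and 23613 in control and 35795 and 36107 in *Dnmt1* KO libraries (153% and 154%), led by *Erbb4* (1.08) and *Sox6* (0.80). The study itself reported *Dlx2*, *Dlx5*, *Lhx6*, *Satb1*, *Sox6* and *Erbb4* of this list as raised in these knockout cells. As the list was also chosen with earlier results known, its rise was not an independent observation. The 12 blood genes summed to 2615 and 2434 in control and 587 and 593 in *Dnmt1* KO libraries (23.2% and 23.5%), *Gata1* was at 0 in all 4 libraries, and 8 of 8 tested genes fell, including the embryonic globins *Hbb-y* (−3.44) and *Hba-x* (−3.16). The 16 genes of vascular cells, microglia and oligodendrocyte precursors summed to 806 and 825 in control and 364 and 388 in *Dnmt1* KO libraries (44.6% and 47.6%), with 8 of 12 tested genes lower, among them *Cdh5* (−1.72) and *Csf1r* (−1.42), and 4 without control library 2. Of 12 excitatory lineage genes, 9 fell, with *Neurog1* (−2.17) and *Neurog2* (−1.40) in front, and 1, *Bcl11b*, rose (0.45), with sums of 6664 and 6740.0 in control and 6455 and 6223 in *Dnmt1* KO libraries (96.3% and 92.9%). *Bcl11b* alone made up a large part of those sums, with 3349 and 3317 in control and 4596 and 4514 in *Dnmt1* KO libraries. Which cells the *Bcl11b* reads came from was not tested. The other 11 genes summed to 3315 and 3423 in control and 1858 and 1709.9 in *Dnmt1* KO libraries (55.2% and 50.8%). That sum was chosen after seeing the data. The summed replication members, at 77.7% and 79.2%, lay between the mitosis markers and the control level, and the part of these cell types in the result was not tested.

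**Figure D4:**
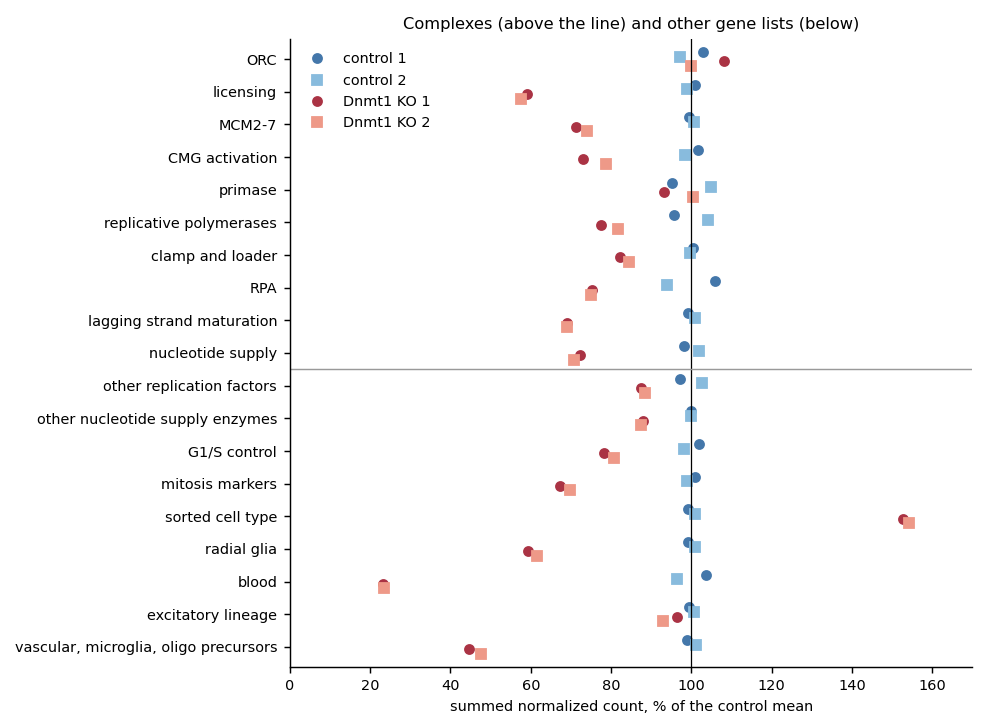
Summed normalized count of each complex (above the line) and of each other gene list (below it) in each library, in % of the control mean. MCM2-7 in *Dnmt1* KO libraries stands at 71.3% and 73.9%, ORC at 108% and 99.9%, and the list of the sorted cell type is at 153% and 154%.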

How the data were processed

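Total RNA from sorted tdTomato-positive cells of 2 control and 2 *Dnmt1* KO libraries was sequenced. Groups and replicate numbers were those of the sample labels. Per the labels and the study's methods, the authors used Trim Galore for trimming, STAR for alignment to GRCm39, Salmon for gene counts and DESeq2 1.32.0 in R 4.3.2 for normalization. Libraries were made with a stranded kit. The strand setting of the counting is not given in the sources used here. The study lists an Ensembl release without stating whether the counts used it. Of the 45 members, 17 overlap another counted gene, and their levels are uncertain to that extent. They include 5 called members, *Mcm7*, *Cdc45*, *Pcna*, *Rpa1* and *Lig1*. For *Gins2*, *Rfc4* and *Rfc5*, an overlapping gene had the larger count (*Gse1*, *Eif4a2* and *Wsb2*, with means of 1140, 1830 and 796). The deposited values are a signal of normalized counts, that is, whole reads divided by 1 size factor per library. All values above 0, between 22131 and 22874 per library, came out as whole reads to within 0.0001 of a read, and edgeR called 2528 genes on those reads. The whole numbers called reads here are gene counts from Salmon and need not equal sequenced reads.

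A gene was tested if its normalized counts averaged 10 or more. limma 3.58.1 (lmFit, eBayes with a variance trend, in R 4.3.3) was run on log2(normalized count + 1), with genotype as the only term and Benjamini-Hochberg adjustment over 14323 genes. Fold changes on this scale understate those of low genes. Positions, transcript lengths and promoters came from GRCm39 with GENCODE, in which 38 tested genes were not matched. Alternatives were pseudocounts of 0.5 and 10, filters of 1 and 50, TMM, quantile normalization, no variance trend, edgeR 4.0.16, DESeq2 1.42.0 and limma-voom on recovered reads, a spline of 5 degrees of freedom over length and GC content, the replicate block, and each library left out, where the lone library was assumed to vary like the others. Scripts were tested on simulated data. Python 3.11.15 with matplotlib 3.10.9 drew the plots.

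All 45 members are named, with the values in every library for each called member, and from each other list the 2 called genes with the most negative and the most positive change. *Rrm2b*, *Tk2*, *Mki67*, *Sst* and *Gata1* were named outside this rule, as were genes that overlap a member and the pseudogene *Pcna-ps2*. The members and lists were chosen with earlier results of these data known. *Ctps1* and *Adss2* had no row under these names.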

Additional observations from a re-analysis of the deposited data

How the results depend on the processing

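The 17 members called lower kept their direction in each alternative that tested them, and *Gmnn* was not tested with the filter of 50. The 17 calls were kept with a pseudocount of 0.5 or 10, a filter of 1, TMM, edgeR and limma-voom, the 16 members tested with the filter of 50 kept theirs, and quantile normalization kept 15, losing *Cdt1* (adjusted p 0.0814) and *Rfc1* (0.0591). The length and GC correction lost *Cdt1* (0.0523). Without the variance trend, 0 genes and 0 members were called (smallest adjusted p 0.0592 over all genes and 0.0657 over members), although 3339 genes and 22 members had an unadjusted p below 0.05. DESeq2 called 1327 genes in place of 2476 and 8 members, and the cause was not tested. When 1 library was left out, 1525 to 2205 genes and 9 to 16 members were called, and the members' median log2 fold change ran from −0.39 to −0.28, against −0.34 with all libraries. It was −0.3001 after quantile normalization and −0.296 with the length and GC trend taken out, whether or not the replicate block was used. The members whose direction changed were not called. *Orc3* turned from 0.007 to −0.002787 with limma-voom, and with the length and GC trend taken out *Orc3* was at −0.08602, *Orc4* at −0.2188 and *Rfc3* at 0.04482, also with the block. With 1 library left out in turn, log2 fold changes ran from −0.1318 to 0.1463 for *Orc3*, from −0.2359 to 0.5352 for *Gins3*, from −0.1533 to 0.2809 for *Gins4*, from −0.3984 to 0.04627 for *Pold2*, from −0.3379 to 0.01543 for *Pole2* and from −0.2712 to 0.07132 for *Rfc2*. Same-numbered libraries did not deviate together over genes (correlation −0.085). With 2 libraries per genotype, this value cannot show whether same-numbered libraries were processed together. With the replicate block 2957 genes and all 17 members were called. Low counts, 30 reads in a library for *Gmnn*, limit the precision of the smaller members.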
